A study of Mus musculus with 14 samples.

Results

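The large ribosomal subunit protein genes were followed through ribosome profiling (Ribo-seq, the sequencing of ribosome-protected mRNA fragments) and RNA-seq of mouse embryonic fibroblasts. The set holds 47 protein-coding genes of the 60S subunit out of 14241 genes in the deposited files, chosen by symbol. The choice was made with earlier results of these data known. Each gene was represented by the transcript with the highest mean RPKM (reads per kilobase of sequence, scaled to the mapped reads of the library), called the kept transcript below, and pseudogene transcripts were left out.

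The large subunit joins amino acids into protein and houses the tunnel through which the new chain leaves. In vertebrates the mRNAs of ribosomal proteins typically begin with a cytidine followed by an unbroken stretch of pyrimidines, the 5′ terminal oligopyrimidine (TOP) motif. Their translation depends on the kinase mTOR, which acts in part through the repressor proteins Larp1 and the 4E-BPs, and they are a standard readout of mTOR activity in fibroblasts.

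The cells were C57BL/6J fibroblasts, and all lysates were made in cycloheximide at 100 µg/ml, a drug that holds ribosomes on mRNA. Scram libraries are the control of both knockdowns, shMETTL3 libraries from knockdown of METTL3, a writer of N6-methyladenosine, and shABCF1 libraries from knockdown of ABCF1, a ribosome-associated ATPase. Each had 2 replicates per assay. Torin libraries, 1 per assay, came from cells given Torin1, an ATP-competitive mTOR inhibitor, at 250 nM for 2 h. The treatment protocol names DMSO as its vehicle. No library is labelled as DMSO alone, so drug and vehicle cannot be told apart in the Torin changes. The labels name no knockdown line or hairpin for Torin, and leave unsaid if the replicates of a group were grown apart. Each p-value is therefore set against the scatter of the libraries at hand, which may be technical. Ribo-seq fragments were cut from gels at 25 to 35 nt and RNA-seq fragments at 40 to 60 nt.

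The implied depth was 1764404 to 5155237 reads per Ribo-seq library and 1197860 to 3802703 per RNA-seq library. Mettl3 stood at 28.9% and 77.4% of same-replicate Scram in shMETTL3 RNA-seq and at 12.5% and 38.6% in Ribo-seq. Abcf1 stood at 29.1% and 47.7% in shABCF1 RNA-seq and at 35.3% and 50.3% in Ribo-seq. Of 10 fibroblast markers 9 were listed, with Lum absent, and their summed scaled level was 2350 to 4023 in RNA-seq, against 46.7 to 90.0 for 5 epithelial markers, 0 to 5.37 for 5 blood markers and 0 to 1.58 for 4 endothelial markers. The libraries formed 2 sets that cut across the groups. The first set is the 6 replicate 1 libraries and the second set is the 6 replicate 2 libraries with both Torin libraries. Of the transcripts listed in Torin RNA-seq, 99.8% were also listed in Scram replicate 2 and 89.8% in Scram replicate 1. All listed transcripts of the 47 genes held a similar share of RNA-seq reads in both sets, at 1.19% in Scram replicate 1 and 1.10% in Scram replicate 2. In the second set, however, Lars2 and Tmem38b held 43.6% to 52.2% of the RNA-seq reads. Without those genes the member share was 1.20% in Scram replicate 1 and 1.95% in Scram replicate 2. Each library was therefore scaled to a common median of its tested genes, and changes were taken within a replicate.

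The sets mattered for the large subunit genes in a second way, since they listed different transcripts for many of them. The kept transcript was listed in all 14 libraries for 30 of the 47 genes. Rpl9, Rpl10, Rpl18, Rpl21, Rpl27 and Rpl41 had it in the first set only, and Rpl35 had it there and in 1 further library. Rpl13, Rpl22 and Rpl31 had it in the second set only. Rpl15, Rpl22l1, Rpl26, Rpl28, Rpl32, Rpl35a and Rpl38 missed it in part of the first set. Where all libraries of a set listed another transcript of the gene, that transcript stood in within the set. This gave changes within the second set for 43 genes and within both sets for 42. Rpl10, Rpl18, Rpl27 and Rpl35 had no transcript listed in all second set libraries and so no Torin change here, and Rpl13 had none in the first set. Of these, Rpl27 had second set values in RNA-seq (29.6 in Scram replicate 2 and 23.0 with Torin) but none in Ribo-seq. Several members have near-identical processed pseudogenes, and no source used here gives the rule for reads with several positions, so single levels are uncertain to that extent.

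RefSeq start-site sequences of GRCm38.p6 were given for 36 of the 47 genes. Within 50 bases on either side of the start, 33 of 36 held an unbroken run of at least 8 C or T on the gene's strand (91.7%), with a median longest run of 11 bases and a range of 6 to 21. Of all 27025 genes with such a sequence 39.3% held one. Runs of at least 8 A or G, the same pattern on the other strand, occurred in 36.1% of the members and 41.1% of all genes. The share with a C or T run was 76% for 25 small subunit genes and 29.6% for 27 genes of 60S assembly factors, which are not ribosomal proteins. Their shares with an A or G run were 8% and 33.3%. Windows from both ends of the Torin response are printed, each placed on the pyrimidine run and not on the start. They cover the 6 lowest and the 5 highest ratio changes among genes with a sequence and a Torin value. Rpl36, Rpl29 and Rpl8 had no sequence. Each window runs 5′ to 3′ on the gene's strand, and capitals mark the longest C or T run within 50 bases of the start. Counted from the annotated start, the run began at base -4 in Rpl27a, 14 in Rpl11 and 12 in Rplp0. It began at 41 in Rpl41, 40 in Rpl12 and 37 in Rpl39. It began at 29 in Rpl36al, -2 in Rpl38, 33 in Rpl19, -14 in Rpl7a, 32 in Rpl6 and 28 in Rpl36a. Windows of runs with a positive value do not hold the annotated start, so those runs are not at the annotated 5′ end.

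Low in ratio with Torin: Rpl27a (chr7:109519183-109519212, plus strand), Rpl11 (chr4:136053359-136053388, minus), Rplp0 (chr5:115559470-115559499, plus), Rpl41 (chr10:128549119-128549136, minus), Rpl12 (chr2:32961743-32961761, plus) and Rpl39 (chrX:37085173-37085194, minus).
Rpl27a: ttcgtgagCTCCTCCCTTTTCCCTTTCTgc
Rpl11: gccggaagTCTCCCTCTCTCTTCCTgttct
Rplp0: ccgcctggTTCTCCTataaaaggcacacgc
Rpl41: gcagtaggCCTCCCTCTC
Rpl12: cggtgcaaCTTTCTTCggt
Rpl39: ggtcccggCCTTTCTCTTCTCC

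Least low in ratio with Torin: Rpl36al (chr12:69184018-69184047, minus strand), Rpl38 (chr11:114668570-114668599, plus), Rpl19 (chr11:98026948-98026973, plus), Rpl7a (chr2:26910785-26910814, plus) and Rpl6 (chr5:121204524-121204550, plus). Rpl36a (chrX:134585673-134585702, plus), the paralog of Rpl36al, is shown with them.
Rpl36al: tctgttcgTCCCTTTCCTgttcggcgcgtg
Rpl38: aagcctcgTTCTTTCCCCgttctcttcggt
Rpl19: cccacaagCTCTTTCCTTTCgctgct
Rpl7a: ccccacaaTTCCCTCTTCTTTCTTTCTCCa
Rpl6: tgccttagTTCTCTTTCCCgtcttgca
Rpl36a: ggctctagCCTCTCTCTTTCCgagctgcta

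Both groups of windows hold pyrimidine runs, since each window was placed on a run. The longest printed run belongs to Rpl7a, with 21 bases, and the next to Rpl27a, with 20, although these genes stood at opposite ends of the response. Over 32 members with both values, the longest run and the Torin ratio change had a Pearson r of -0.04 (a description, since members share libraries and annotated starts can miss the true one). The run of Rplp0 in this window was 7 bases.

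In Scram cells the members spanned a wide range of levels. Values below are RPKM after scaling (scaled RPKM), which is per length and so can be compared between genes. Over the 32 members with the kept transcript in all 4 Scram libraries, the highest mean RNA-seq levels were those of Rpl8 (668), Rpl4 (614), Rpl19 (522) and Rplp1 (468). The lowest were those of Rpl22l1 (27.0), Rpl36al (30.2), Rpl29 (47.4) and Rpl36 (66.2), so 2 of the 4 lowest were genes with a paralog in the set. In Ribo-seq Rpl8 (5422), Rpl37 (4371), Rpl23 (3126) and Rpl37a (3121) had the highest means and Rpl22l1 (134), Rpl29 (269), Rpl11 (441) and Rplp0 (444) the lowest. The log2 ratio of Ribo-seq to RNA-seq was highest for Rpl37 (4.40), Rpl36 (4.06), Rpl36al (3.77) and Rpl34 (3.68). It was lowest for Rplp0 (0.37), Rpl3 (0.98), Rpl22l1 (1.02) and Rpl26 (1.51). The kept transcript of Rpl26 was listed at 5.03 in Ribo-seq of Scram replicate 1 and at 2241 in replicate 2, so its mean describes neither set. The same holds for Rpl22l1, whose kept transcript had 5.73 and 48.3 in Scram RNA-seq, 4.18 and 264 in Ribo-seq, and log2 ratios of -0.38 (from 7 reads in each assay) and 2.42. With the transcript of the first set its replicate 1 RNA-seq level was 53.4, above the Rpl36al and Rpl29 means.

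This order was loose, because Scram replicates 1 and 2 gave different levels for the same gene. Over the 30 members listed in all 14 libraries, the log2 levels of the 2 Scram libraries had a Pearson r of 0.62 in RNA-seq and 0.46 in Ribo-seq. Scram and a knockdown or Torin library of the same set correlated at 0.89 to 1.00 by RNA-seq, and by Ribo-seq at 0.91 to 0.99 (descriptions across genes). In RNA-seq 15 of the 30 were at least 2-fold apart between Scram replicates and in Ribo-seq 17 were. Rpl8 had 491 and 845 in Scram RNA-seq and 7360.1 and 3485 in Ribo-seq, so even the gene at the top did not hold its level between sets. Neighbours in these orders do not differ beyond that spread. Rplp0 was low in ratio in both Scram replicates, at 0.78 and -0.04, and Rpl37 was high in both, at 4.83 and 3.98.

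With Torin, ribosome footprints on large subunit mRNAs were lower throughout while the mRNAs themselves stayed near their Scram level. Of the 40 members whose kept transcript the second set lists, 40 were lower in Ribo-seq in Torin than in Scram replicate 2 (49.5% of 8546 genes tested were lower), and 39 were lower by 2-fold or more (3.9% of genes tested). The median log2 change was -2.13, from -3.30 to -0.81, against 0.01 for all genes tested. In RNA-seq the same 40 had a median change of 0.05, with 11 lower and 29 higher (48.7% and 51.3% of 7916 genes tested), and a range of -0.66 to 0.44. None was lower by 2-fold or more in RNA-seq (0.543% of genes tested were). The ratio of the assays was lower for 40 of 40 (51.1% of 7496 genes tested), by 2-fold or more for 39 (5.24%), with a median of -2.21. With transcripts that stood in, 43 of 43 were lower in Ribo-seq and in ratio, and 42 of 43 by 2-fold or more.

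**Figure D1:**
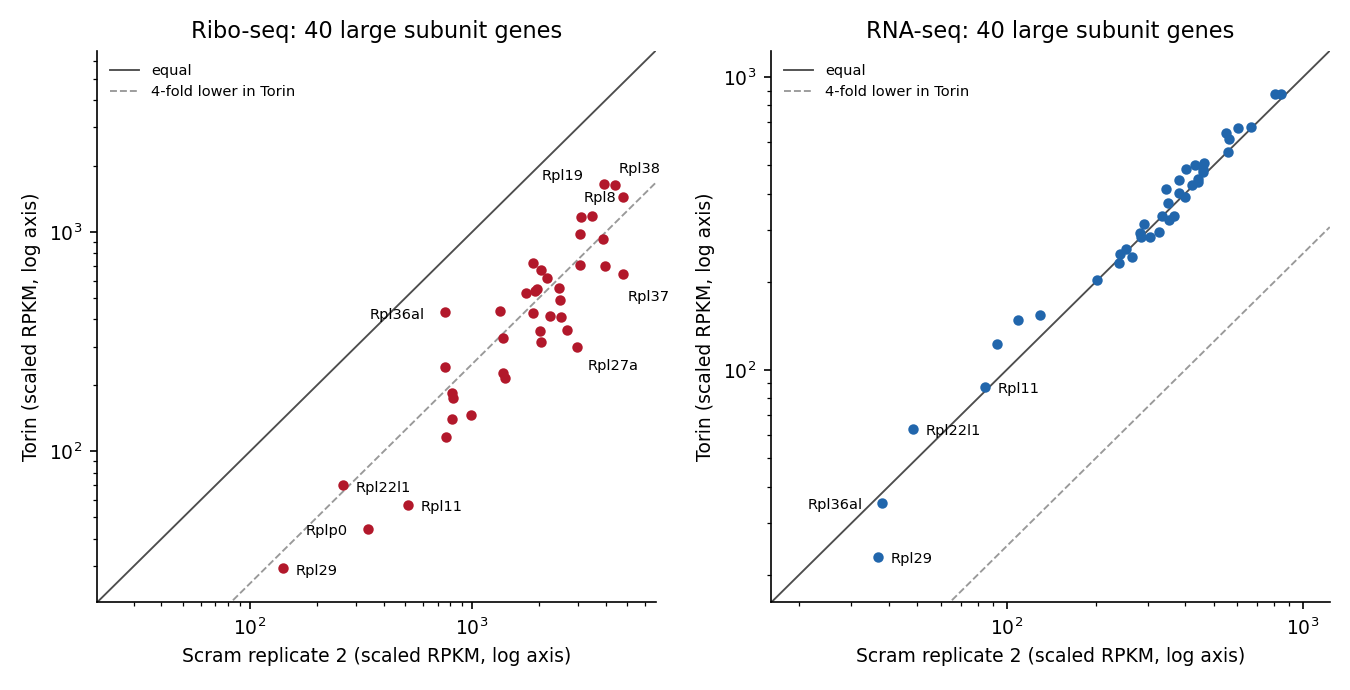
Level of each of 40 large subunit genes in Torin against Scram replicate 2, as scaled RPKM on log axes, in Ribo-seq (left) and RNA-seq (right). Each point is 1 gene in 1 library per axis, the solid line marks equal levels and the dashed line a level 4-fold lower. All 40 lie below the solid line in Ribo-seq, between 29.3 and 1661 in Torin, and close around it in RNA-seq.

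The levels behind these changes show the shift directly. In Ribo-seq the 40 members ran from 141 to 4792 with a median of 1993 in Scram replicate 2, and from 29.3 to 1661 with a median of 429 in Torin. In RNA-seq they ran from 36.8 to 845 with a median of 352 in Scram replicate 2, and from 23.0 to 879 with a median of 353 in Torin. In Ribo-seq the Torin library was the lowest of the 4 libraries of the second set for 40 of 40 members, below both knockdowns as well as Scram. Among all 7 Ribo-seq libraries it was the lowest for 22 of the 30 members listed throughout, an order that also depends on the differences between the sets. No share over all genes is given beside these counts, so they describe the members only. Within the second set, where 43 of the 47 genes have a value, all listed transcripts of the set of genes took 1.35% of Ribo-seq reads with Torin and 4.32% to 4.82% in the other 3 libraries.

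Counting error was small beside these changes. For the 40 members the exact 95% interval of the Ribo-seq change, which covers counting error only because the reads carry no molecular identifiers, was a median 0.31 wide on the log2 scale. It lay below 0 for 40 of 40 and below -1 for 39. The widest belonged to Rpl29, with 263 reads in Scram replicate 2 and 29 with Torin, at -2.87 to -1.71. RNA-seq with Torin had a median of 236 reads per member and Ribo-seq 386, with 6 members under 100 reads in each, and the RNA-seq intervals were a median 0.43 wide.

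With 1 Torin library per assay there was no replicate of the treatment. In limma fits over all genes, with the lone library assumed to vary like the other groups, 0 of 32 members tested passed at an adjusted p of 0.05 in Ribo-seq, 0 of 32 in ratio and 0 of 38 in RNA-seq, as did 0 genes of any kind (0% called). At an unadjusted p under 0.05, 14 of 32 members were lower in Ribo-seq (3.37% of genes tested were) and 10 of 32 in ratio (1.26%), and 0 of 38 differed in RNA-seq (2.76%). With a replicate block, a term that removes the difference between the sets, 32 of 32 members had a lower fitted value in Ribo-seq and in ratio. Of these, 22 passed at an adjusted p of 0.05 in Ribo-seq (1.18% of 8891 genes tested passed and were lower) and 8 in ratio (0.376% of 8241), and 0 of 38 passed in RNA-seq (0.218% of genes). With the transcript of each set as well, 42 of 42 were lower in both, and 30 passed in Ribo-seq (1.28%) and 12 in ratio (0.381%).

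The 10 lowest adjusted p-values of the blocked Ribo-seq fit were those of Rpl27a (limma log2 change -3.29, SE 0.26, adjusted p = 0.0057), Rpl11, Rpl37, Rplp0, Rpl39, Rpl12, Rplp1, Rpl26, Rpl37a and Rpl36 (-2.68, SE 0.32, adjusted p = 0.0123). The 8 called in ratio were Rpl27a, Rpl11, Rpl37, Rpl36, Rpl13a, Rplp0, Rplp2 and Rpl14, from -3.35 (SE 0.30) for Rpl27a to -2.02 (SE 0.34) for Rpl14. The blocked fit has 2 residual degrees of freedom per assay.

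**Figure D2:**
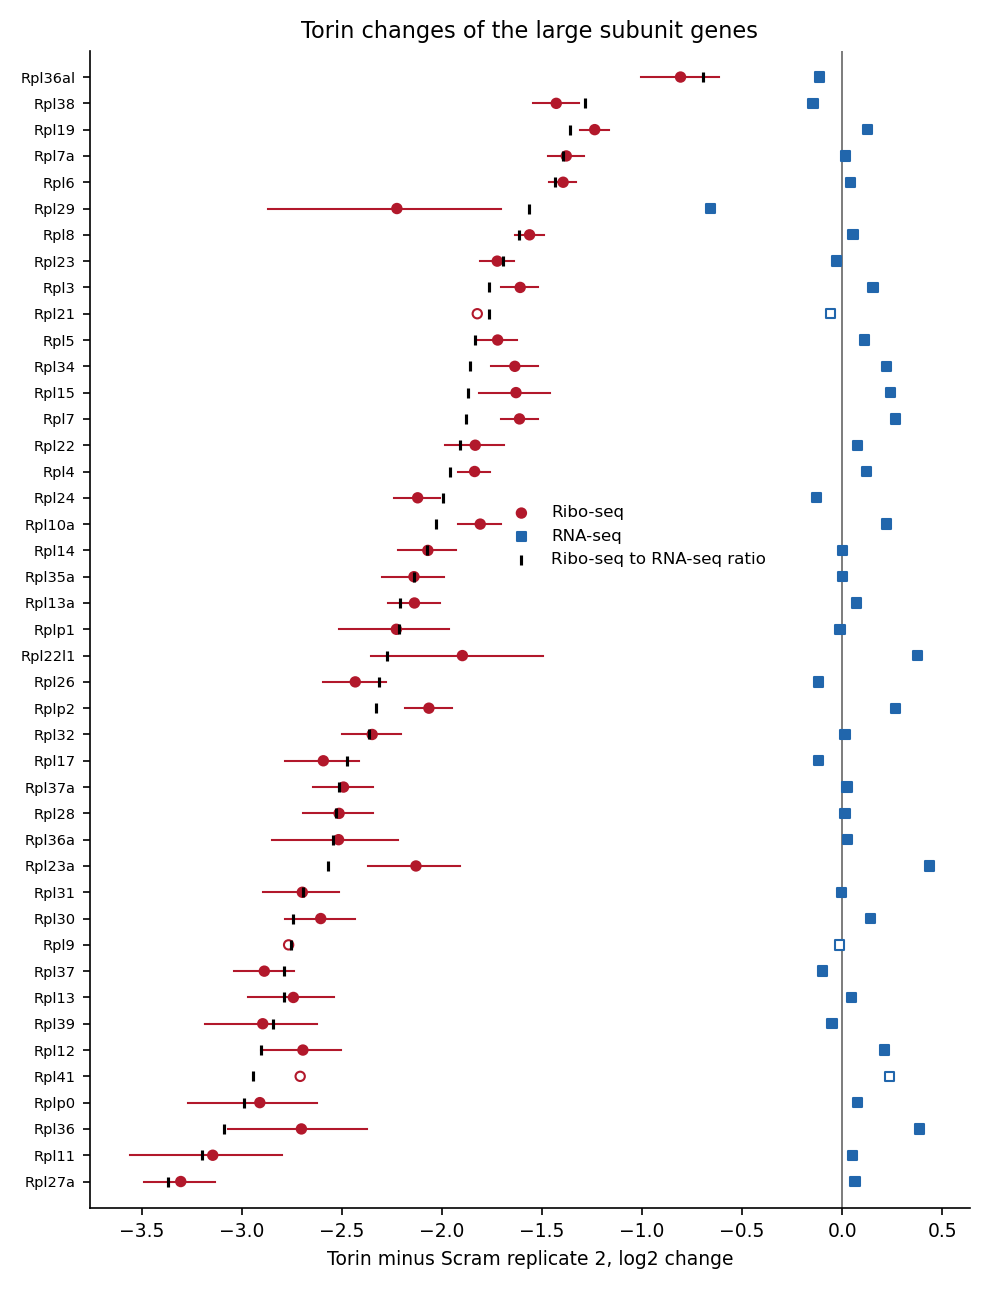
Torin minus Scram replicate 2 log2 change of 43 large subunit genes in Ribo-seq (red circles, with lines for the exact 95% counting interval), RNA-seq (blue squares) and their ratio (black ticks), sorted by ratio change. Open symbols mark 3 genes measured by another transcript than the kept one, which have no interval drawn. RNA-seq values gather around 0 and Ribo-seq values between -3.30 and -0.81, with Rpl36al apart at the top.

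The 2 proteins of the 5S ribonucleoprotein, which load 5S rRNA into the subunit and can bind the p53 regulator Mdm2, differed in the size of their change. Rpl11 (ENSMUST00000102536, GRCm38 chromosome 4, 136049731 to 136053393) had 368 and 514 in Scram Ribo-seq, 348 and 417 in shMETTL3, 367 and 589.8 in shABCF1, and 57.2 with Torin. Its RNA-seq levels were 79.7 and 84.4, 86.8 and 78.2, 68.2 and 66.3, and 87.6 with Torin. The Torin library was thus the lowest of 7 in Ribo-seq. In RNA-seq it was near Scram replicate 2, with a change of 0.05 that rests on 65 reads with Torin. The ratio change was -3.20. Rpl5 stood at 259 and 1745 in the Scram Ribo-seq libraries against 529 in Torin, and at 87.3 and 291 in Scram RNA-seq against 315 in Torin. Its ratio change was -1.83, and its Torin level lay between the Scram replicates because those differ by set.

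The stalk recruits the elongation factors, with Rplp0 as its base, Rplp1 and Rplp2 as its dimers and Rpl12 beside the base. All 4 stalk genes were lower in ratio with Torin, with log2 changes of -2.99 for Rplp0, -2.90 for Rpl12, -2.33 for Rplp2 and -2.22 for Rplp1. Rplp0 (ENSMUST00000086519, chromosome 5, 115559467 to 115563727) had 548 and 341 in Scram Ribo-seq, 411 and 323 in shMETTL3, 369 and 349.7 in shABCF1, and 44.5 with Torin. In RNA-seq it had 319 and 351, 273 and 349, 186 and 379.6, and 370.3. The 6 other Ribo-seq libraries were all above Torin, with no overlap. Rpl12 went from 1406 in Scram replicate 2 to 216 with Torin in Ribo-seq, while its RNA-seq level went from 433 to 502.

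Rpl4, Rpl17 and Rpl39 line the exit tunnel. Rpl39, a very short protein, stood at 1027 and 2681 in Scram Ribo-seq against 359.6 in Torin, with RNA-seq levels of 111, 239 and 231, and a ratio change of -2.84. Rpl17 had a ratio change of -2.47 and Rpl4 of -1.96. Rpl4 is the member with the longest coding sequence and had 2226 and 1964 in Scram Ribo-seq and 549 with Torin, so all 6 other libraries were above the treated one. Some genes for proteins at the rim of the tunnel exit were also read, outside the fixed role groups. Of these, Rpl31 had -2.69, Rpl23a -2.57, Rpl26 -2.31, Rpl19 -1.36 and Rpl38 -1.28, and Rpl35 had no ratio value with Torin. Rpl38 and Rpl19 had the smallest ratio changes outside Rpl36al, while Rpl31, Rpl23a and Rpl26 lay below the member median of -2.22. These genes thus had no common size of change.

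The 6 largest ratio changes among the 30 members listed in all libraries were Rpl27a at -3.37, Rpl11, Rpl36 at -3.09, Rplp0, Rpl12 and Rpl39. Rpl27a (ENSMUST00000143107, chromosome 7, 109519147 to 109522367) had 800.0 and 2973 in Scram Ribo-seq, 932 and 3202 in shMETTL3, 965 and 3601 in shABCF1, and 300.1 with Torin. Its RNA-seq levels were 109 and 281, 113 and 273, 95.4 and 264, and 294. Its footprint level with Torin was thus 10.1% of Scram replicate 2, while its RNA-seq change from the same replicate was 0.06. Rpl36 went from 764 to 117 in Ribo-seq and from 93.2 to 122 in RNA-seq.

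The 6 smallest among the same 30 were Rpl36al at -0.70, Rpl19 at -1.36, Rpl7a at -1.40, Rpl6 at -1.43, Rpl29 at -1.57 and Rpl8 at -1.62. Rpl19 had 3916 in Scram replicate 2 and 1661 with Torin in Ribo-seq, and 806 and 879 in RNA-seq. Rpl8, whose protein lies near the peptidyl transferase centre, had 3485 and 1179.8, and 845 and 878. The Ribo-seq counting intervals of Rpl19 (-1.31 to -1.17) and Rpl27a (-3.49 to -3.13) were far apart, so the members differed among themselves by more than counting error. Rpl29 is a case apart, since its RNA-seq change of -0.66 rests on 86 and 15 reads and has a counting interval of -1.58 to 0.12.

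Rpl36a and Rpl36al encode nearly identical proteins, and the pair parted under Torin. Rpl36a (ENSMUST00000113211, chromosome X, 134585654 to 134588056) had 944 and 813 in Scram Ribo-seq, 1326 and 586 in shMETTL3, 811 and 824 in shABCF1, and 141 with Torin. Rpl36al (ENSMUST00000110619, chromosome 12, 69182738 to 69184013) had 225 and 754, 399 and 693, 252 and 818, and 430.0 with Torin. Its Torin value lay inside the range of its other libraries because those differ by set, while that of Rpl36a lay below all 6. Within the second set the Torin value of Rpl36al was also the lowest, at 430.0 against 754, 693 and 818. Their Ribo-seq changes were -0.81 (counting interval -1.01 to -0.62) and -2.52 (-2.85 to -2.22), and their ratio changes -0.70 and -2.54. Rpl36al footprints went from 92.7% of the Rpl36a level in Scram replicate 2 to 304% with Torin, and its RNA-seq level from 15.0% to 13.6%. The genes are similar in coding sequence, so reads may be split between them, and whether this bears on the difference was not tested.

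**Figure D3:**
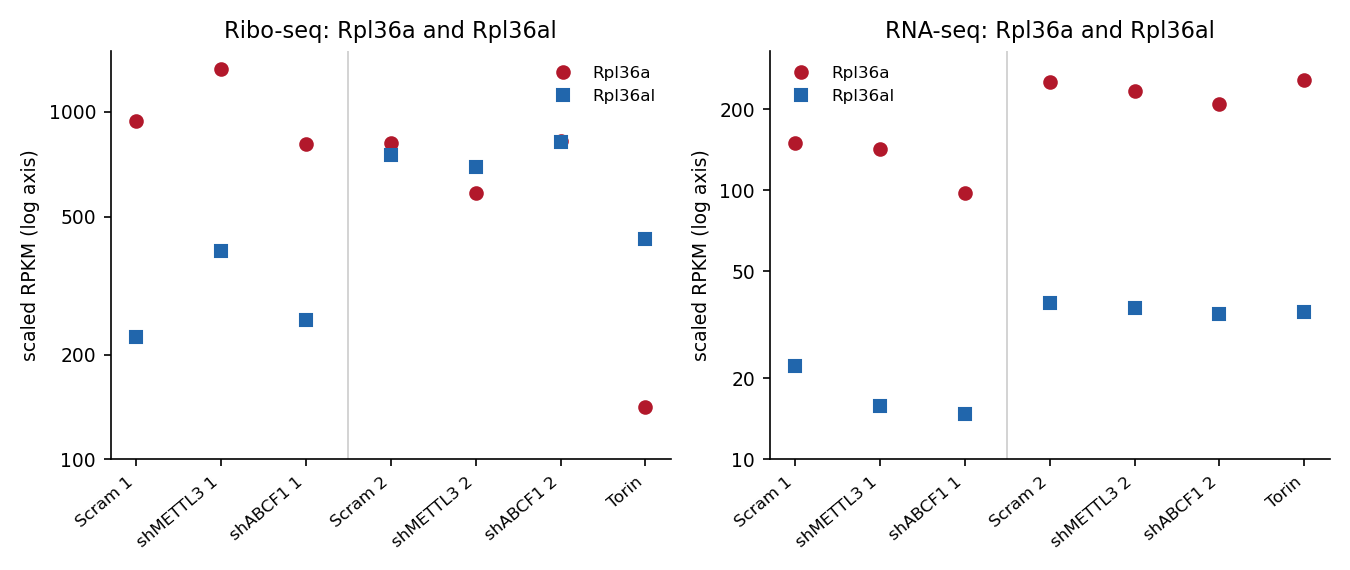
Scaled RPKM (log axis) of Rpl36a (red circles) and Rpl36al (blue squares) in each of the 7 Ribo-seq libraries (left) and 7 RNA-seq libraries (right), with 1 point per library and a grey line between the sets. In Ribo-seq with Torin Rpl36a is at 141 and Rpl36al at 430.0, and in RNA-seq the pair keeps its order in every library.

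The other pair, Rpl22 and Rpl22l1, did not part in this way. Rpl22 went from 1920.3 in Scram replicate 2 to 538 with Torin in Ribo-seq and from 461 to 485 in RNA-seq. Rpl22l1, the scarcer copy, went from 264 to 70.1 and from 48.3 to 63.0. Their Ribo-seq changes were -1.83 (counting interval -1.99 to -1.69) and -1.90 (-2.36 to -1.49), which overlap, and their ratio changes were -1.91 and -2.27.

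Coding length and membership of the conserved core were compared as properties outside the rule. Across 43 members the log2 coding length and the Torin ratio change had a Pearson r of 0.26. The r was 0.03 over 29 small subunit genes and 0.30 over 7431 other tested genes (descriptions, since all points share the same 4 libraries). The 15 shortest members, up to 384 nt, had a median ratio change of -2.33, the 14 of 387 to 576 nt -2.50 and the 14 of 588 to 1257 nt -1.87. The middle group was the lowest, so the medians did not rise steadily with length. The 16 measured proteins of the universal core, present in bacteria as well, had a median of -2.26 and the 27 others -2.22, so the medians were close.

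Set beside other genes, the large subunit genes moved with the small subunit. Of 29 small subunit genes measured, 29 were lower in ratio by 2-fold or more, with a median of -2.20 against -2.22 for the 43 large subunit genes with stand-ins. Among 20 measured TOP genes outside the ribosome, such as elongation factors, 19 were lower in ratio and 15 by 2-fold or more, with a median of -1.35. Genes of 60S assembly factors, which build the subunit in the nucleolus, had a ratio median of 0.08 over 34, with 14 lower and 1 by 2-fold or more. The RNA-seq medians of the 3 lists were 0.07, 0.11 and -0.05. The difference between lists was not tested.

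**Figure D4:**
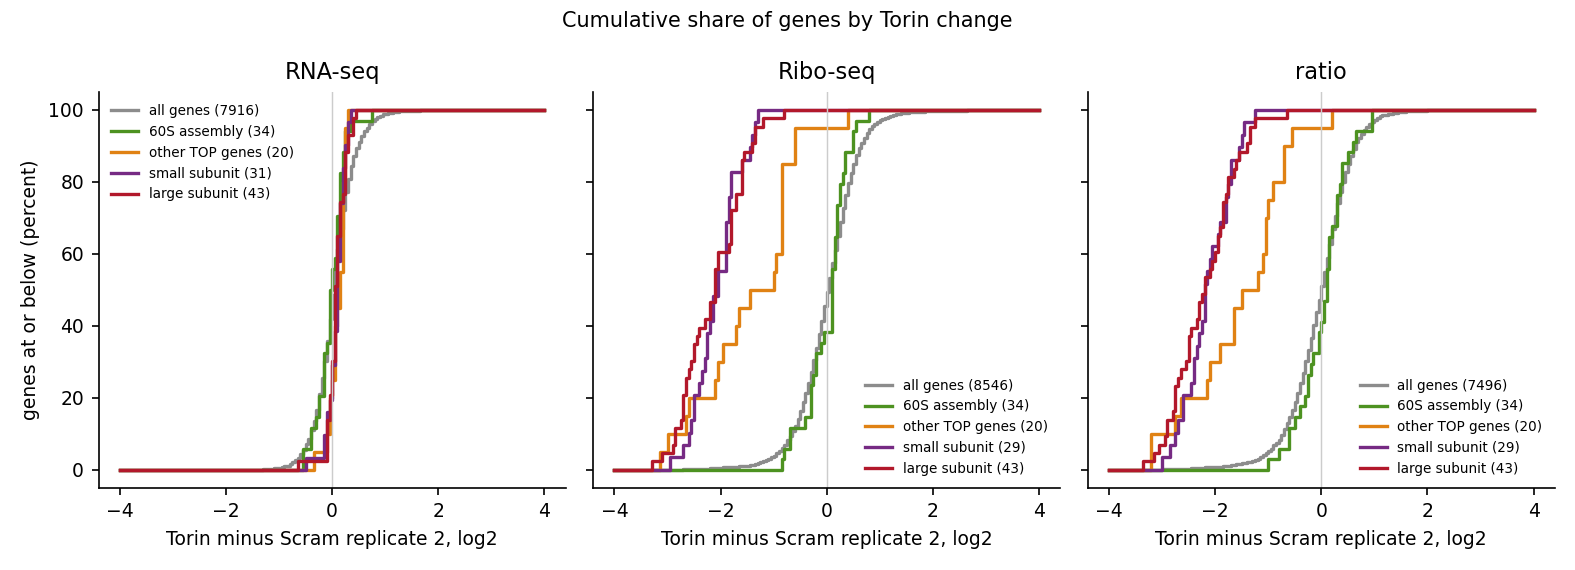
Cumulative percent of genes at or below each Torin minus Scram replicate 2 log2 change in RNA-seq, Ribo-seq and their ratio, for large subunit, small subunit, other TOP and 60S assembly genes and all genes tested, with the number measured in brackets. In RNA-seq the 5 curves overlap around 0, and in Ribo-seq and ratio both subunits lie to the left with medians near -2.1 and -2.2 while 60S assembly follows all genes.

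Outside all fixed lists and ribosomal protein genes, 3 of 5233 genes with at least 100 Ribo-seq reads in Scram replicate 2 had a Ribo-seq change at or below the member median (0.0573%). These were Nme2 at -3.20, Rtraf at -2.26 and Ndufa6 at -2.14, and the next were 2310061I04Rik at -2.12 and Eif4ebp1 at -2.06. Nme2 had 12 Ribo-seq reads with Torin and 2310061I04Rik had 18. In RNA-seq Eif4ebp1 changed by -0.68 and 2310061I04Rik by -0.44, so their ratio changes were -1.38 and -1.67. The RNA-seq changes of Nme2, Rtraf and Ndufa6 were -0.13, -0.05 and -0.17. Likeness here is the Ribo-seq change in 1 pair of libraries.

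In shABCF1 the large subunit mRNAs were lower than in Scram in both replicates for most members, and footprints were not lower to the same extent. Of the 30 members listed in all libraries, 23 were lower in RNA-seq in both replicates and 2 higher in both (29.5% and 24% of 7811 genes tested). The RNA-seq medians were -0.59 in replicate 1 and -0.12 in replicate 2, against -0.03 and -0.02 for all genes. In Ribo-seq 3 were lower and 10 higher in both (23.4% and 29.3% of 8486), with medians of -0.07 and 0.16. The ratio was higher in both for 22 and lower in both for 0 (31.7% and 22.7% of 7487), with medians of 0.43 and 0.28. The ratio subtracts the same RNA-seq values, so these are not separate results. With quantile normalization 13 of 30 were lower and 5 higher in both by RNA-seq (26% and 25.4% of genes tested), with a replicate 2 median of -0.02. The ratio was then higher in both for 18 and lower in both for 2 (27.1% and 25.4%).

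None of these members passed the fit. Limma called 0 of 38 in RNA-seq, 0 of 32 in Ribo-seq and 0 of 32 in ratio (0% of genes called in each), and 0 had an unadjusted p under 0.05 (1.17%, 1.96% and 0.534% of genes tested). With the replicate block limma again called 0, and 4 in RNA-seq, 0 in Ribo-seq and 3 in ratio had an unadjusted p under 0.05 (6.65%, 7.78% and 3.6%). The fitted member medians were -0.42 in RNA-seq, 0.07 in Ribo-seq and 0.40 in ratio.

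The RNA-seq members lowest in both replicates were Rpl22l1 (-1.49 and -0.52), Rpl39 (-1.32 and -0.45) and Rpl38 (-1.22 and -0.38). Rpl39 had 111 and 239 in Scram RNA-seq and 43.8 and 175 in shABCF1, so each replicate was lower within its set while the groups overlap across sets. Rpl15 (0.72 and 0.08), Rpl36 (0.24 and 0.05) and Rpl8 (0.22 and 0.01) were the 3 highest in both. In Ribo-seq Rpl14 (0.55 and 0.40), Rpl37 (0.44 and 0.28) and Rpl27a (0.27 and 0.28) were higher in both, and Rplp1 (-0.36 and -0.29), Rpl12 (-0.18 and -0.33) and Rpl23 (-0.07 and -0.10) lower. In ratio the highest were Rpl39 (1.72 and 0.56), Rpl37 (0.75 and 0.51) and Rpl31 (0.50 and 0.53). Rpl22l1, Rpl38, Rpl15 and Rpl31 rest on transcripts that stood in for the first set.

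Beside these members, 19 of 31 small subunit genes and 23 of 34 genes of 60S assembly factors were lower in shABCF1 RNA-seq in both replicates. Among the other TOP genes 11 of 20 were, against 29.5% of all genes tested. The ratio was higher in both for 17 of 30 small subunit genes, 10 of 20 other TOP genes and 12 of 34 assembly genes. The share of all genes tested was 31.7%, so the assembly genes were near it. In Ribo-seq 20 of the 34 assembly genes and 5 of 20 other TOP genes were lower in both replicates, against 3 of 30 large subunit members and 23.4% of all genes tested.

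**Figure D5:**
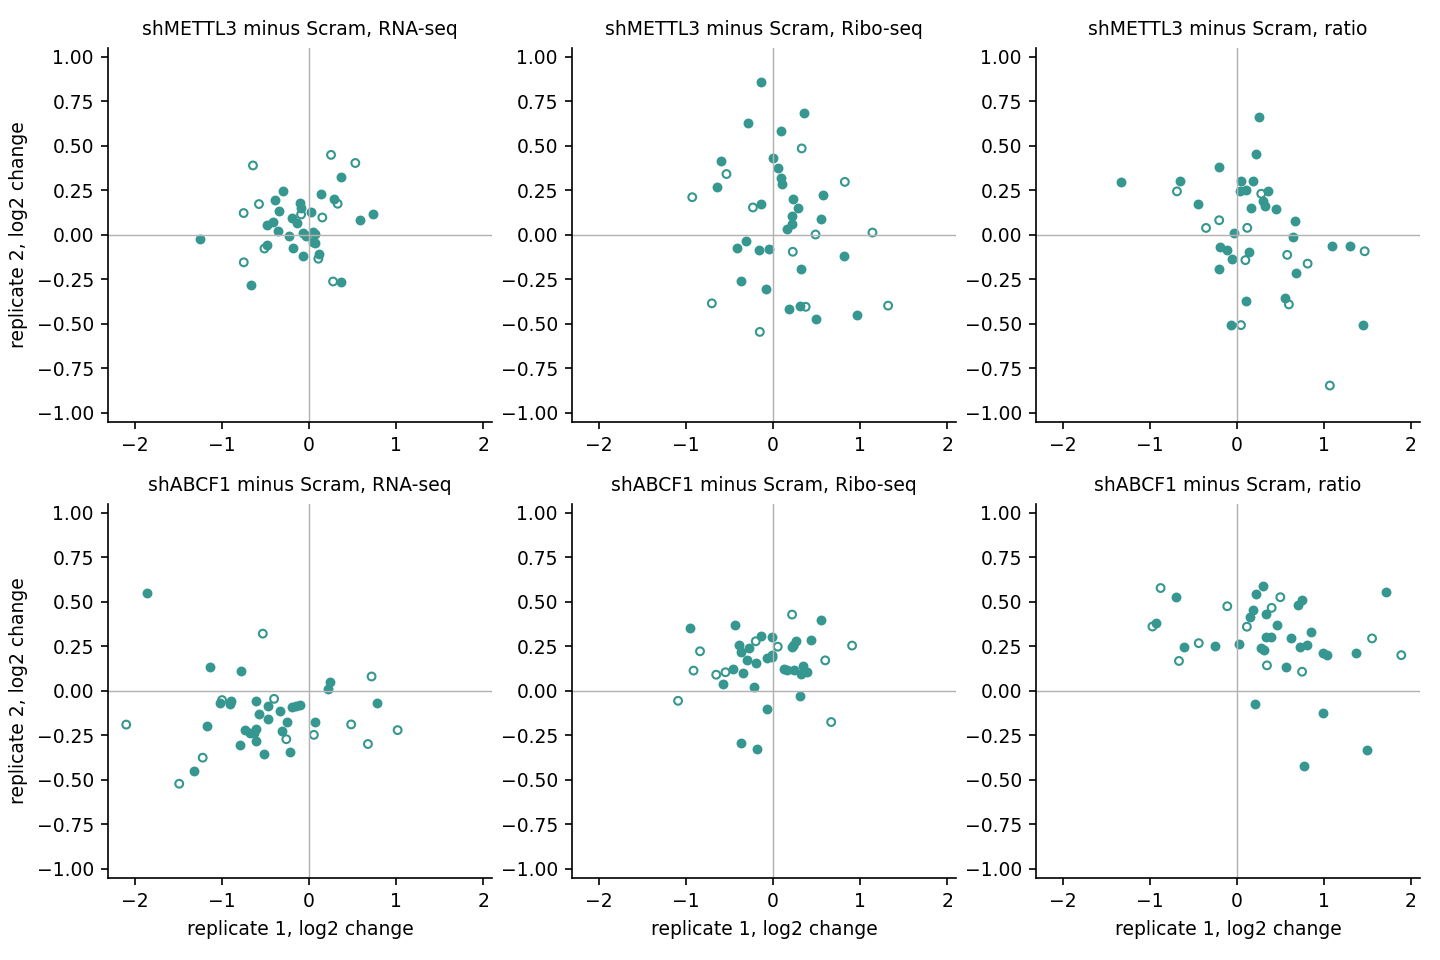
Log2 change from Scram in replicate 1 (horizontal) and replicate 2 (vertical) for 42 large subunit genes, in shMETTL3 (top) and shABCF1 (bottom), by RNA-seq, Ribo-seq and ratio. Each point is a gene, and open points use a transcript other than the kept one in 1 set. In shABCF1 most points lie low and left in RNA-seq and high and right in ratio, and in shMETTL3 they surround 0.

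In shMETTL3 the large subunit genes showed no common direction. In RNA-seq 7 of the 30 were lower and 8 higher in both replicates (25.5% and 27.8% of 7870 genes tested), with medians of -0.08 and 0.04. In Ribo-seq 6 were lower and 13 higher in both (25.5% and 32% of 8353), with medians of 0.10 and 0.10. In ratio 5 were lower and 12 higher (24.7% and 30.4% of 7524), with medians of 0.16 and 0.11. Limma called 0 members in each (0% of genes), with 0 at an unadjusted p under 0.05 (0.919%, 4.04% and 0.51%). With the replicate block it called 0 members (0.0112% of genes in Ribo-seq), and 3 in RNA-seq, 1 in Ribo-seq and 0 in ratio had an unadjusted p under 0.05 (4.21%, 13.8% and 3.82%).

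The members furthest from Scram in both shMETTL3 replicates had small changes beside the Torin ones. In RNA-seq they were Rpl14 (-0.66 and -0.28), Rpl9 (-0.75 and -0.15) and Rpl22 (-0.51 and -0.08) on the low side and Rpl28 (0.53 and 0.40), Rpl7a (0.37 and 0.33) and Rpl41 (0.25 and 0.45) on the high side. In Ribo-seq Rpl26 (-0.70 and -0.38), Rplp1 (-0.36 and -0.26) and Rpl9 (-0.15 and -0.54) were low and Rpl19 (0.36 and 0.69), Rpl28 (0.33 and 0.48) and Rpl38 (0.83 and 0.30) high. In ratio Rpl11 (-0.20 and -0.19), Rpl37 (-0.11 and -0.08) and Rplp0 (-0.19 and -0.07) were low and Rpl10a (0.25 and 0.66), Rpl14 (0.35 and 0.25) and Rpl22 (0.28 and 0.23) high. Rpl19 had 1108 and 3916 in Scram Ribo-seq and 1417 and 6298 in shMETTL3, higher within each set with overlap across sets. Rpl9, Rpl22, Rpl26, Rpl28, Rpl38 and Rpl41 use a transcript that stood in for 1 set.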

How the data were processed

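Ribo-seq and RNA-seq of 14 libraries were deposited as RPKM per Ensembl transcript; the authors trimmed reads with cutadapt and mapped them to GRCm38 using Bowtie, as the submitters' processing notes name these tools and this build. For versions, annotation and reads with several positions, nothing is stated in the sources used here. Of 22453 transcripts 22356 matched GENCODE M21. RPKM times length gave whole reads within 0.02 for 98.7% to 98.8% of Ribo-seq values (coding length with stop codon) and 80.5% to 85.4% of RNA-seq values (transcript length), which gives the depths; the fits used log values because RPKM is not a count.

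Libraries were scaled to a common median, log2(RPKM + 1) was taken, and changes are on that scale. Genes were tested if listed in at least 0.5 of an assay's libraries and in both sets, with a mean of at least 1 RPKM: 8701 by RNA-seq, 8891 by Ribo-seq and 8241 by ratio. A member listed in only 1 set was not set to 0 in the other. Linear models were fitted in R 4.3.3 by limma 3.58.1, using lmFit, contrasts.fit and a trended eBayes, with Benjamini-Hochberg adjusted p over all genes tested and a threshold of 0.05, and the ratio as an interaction of assay and group. The RNA-seq and Ribo-seq fits were run on simulated data, with a limit set on the bias of the blocked fits only. The ratio fit was not simulated. Deviations from group means correlated between same-numbered libraries (r of 0.75 to 0.83 for RNA-seq, 0.81 to 0.87 for Ribo-seq), so the replicate numbers pair the libraries; Torin took the level of replicate 2, whose transcripts it lists. Tables and figures used Python 3.11.15 with pandas 2.3.3 and matplotlib 3.10.9.

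The members, gene lists and rules were chosen with earlier results of these data known. Genes were named as both targets, the 6 lowest and 6 highest Torin ratio changes, the 3 largest changes per direction, readout and knockdown that had the same sign in both replicates, the 4 highest and lowest Scram levels, the fixed role groups, members not listed throughout, up to 10 members past the test, and the 5 other genes most like the list. Alternatives were 2 pseudocounts, filters, scalings, the sum of transcripts, the replicate block and leaving out each replicate. Some genes of the large subunit outside the 47 are not reported here.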

Additional observations from a re-analysis of the deposited data

How the results depend on the processing

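Directions of the Torin medians in Ribo-seq and ratio held under every alternative run. Within the second set the Ribo-seq median of -2.13 was -1.92 without scaling and -1.69 with quantile normalization, and the ratio median of -2.21 was -1.83 and -1.68; without scaling the all-gene medians were 0.20 and 0.34. The RNA-seq median of 0.05 was -0.12 without scaling, with 31 of 40 lower, where the all-gene median was -0.14. Against both Scram libraries, the Torin medians were -1.93 in Ribo-seq (-1.36 with quantile normalization), 0.60 in RNA-seq (0.11 without scaling, 0.31 with quantile normalization, and the other direction, -0.04, with the replicate block), and -2.25 in ratio. The last was -1.93 with no filter, -2.41 over genes listed in every library, -1.51 without scaling, -1.61 with quantile normalization, -2.54 with the sum of transcripts, -2.06 with the replicate block, and, as alternatives chosen after seeing the data, -2.51 with the transcript of each set and -2.05 with absent transcripts as 0. The replicate block raised the members called with Torin from 0 to 22 in Ribo-seq and 8 in ratio, and to 30 and 12 with the transcript of each set, and changed no other count from 0. The shABCF1 ratio median of 0.40 was 0.56 without scaling and 0.32 with quantile normalization.

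Leaving out 1 replicate unbalances the sets. The medians then ranged from -1.06 to 0.36 (shABCF1 RNA-seq), -0.34 to 0.62 (Ribo-seq) and 0.27 to 0.60 (ratio), from -0.67 to 0.58 (shMETTL3 RNA-seq), -0.37 to 0.60 (Ribo-seq) and 0.10 to 0.21 (ratio), and from 0.05 to 1.06 (Torin RNA-seq), -2.12 to -1.46 (Ribo-seq) and -2.37 to -2.22 (ratio), with 0 members called in each. The cause was not tested. Depth limits single members: with Torin 6 of 40 had under 100 reads in each assay, and 7 and 8 in replicate 2 RNA-seq of shMETTL3 and shABCF1.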
